A study of Rattus norvegicus with 12 samples.

Results

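Circular RNAs (circRNAs) of the nucleus that the study names PVN were compared between rats with hepatectomy alone (HT) and rats with hepatectomy and electroacupuncture (HT+EA). The comparison used 6 of the 12 libraries of the series, HT replicates 1 to 3 and HT+EA replicates 1 to 3, chosen by their sample titles, and the normalisation and tests were computed from the raw counts of these 6 libraries alone. All rats of both groups were male Sprague-Dawley animals bought at 7 weeks of age, went through a partial hepatectomy under isoflurane in which part of the left liver lobe was taken out, and were held in a restraint device, awake, for as long as the treated rats. HT+EA rats in addition had needles on 1 side at the points ST 36 (Zusanli) and SP 6 (Sanyinjiao), with current, before and again right after surgery, and tissue was taken 24 h after the last session. Normal controls (NC) had no surgery, and sham-treated rats (HT+SEA) had surgery and needles without current; their 3 libraries each entered none of the tests of the 6 libraries and are used below for values beside named circRNAs, for listing counts and for fits of all 12 libraries. Since HT rats had no needles, needling and current cannot be told apart in HT+EA against HT. The 12 rats were divided over the 4 groups. The study states that each rat gave limited tissue, and that its brain samples therefore came from different animals of the same batch. The sources used here did not state that each library was 1 animal, so the p-values weigh group differences against the spread between these libraries. The labels name the tissue only as brain, with PVN in the titles, and since the table pairs no circRNA with a host gene, neither the nucleus nor its cell types could be checked against marker genes.

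A circRNA arises when the spliceosome joins the end of an exon back to the start of an exon upstream of it, which leaves a closed loop with no free ends. Exonucleases do not attack such loops, so circRNAs are long lived, and they are abundant in the brain, where many come from genes of synapses and neurites. Some bind microRNAs (miRNAs), the short RNAs that repress mRNAs through a seed at their 5′ end. The PVN holds neurons that release corticotrophin-releasing hormone and so start the hypothalamic-pituitary-adrenal axis, the hormone cascade that ends in glucocorticoid release under stress.

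The sequences of the circRNAs themselves were not analysed here. To show what the study linked these circRNAs to, some of the mature miRNAs that it paired with them by target prediction are given. These circRNAs are named below or only counted there within the study's lists. The sequences are from RefSeq (rat build GRCr8), 5′ to 3′, with the seed (bases 2 to 8) in capitals. Others are not shown, among them rno-miR-17-1-3p and rno-miR-497-5p, each paired with 3 circRNAs listed as raised by EA. No miRNA was measured in these libraries.
rno-miR-326-3p (chr1:163266224-163266244, plus strand), paired with 5 of the 13 circRNAs that the study listed as raised by EA: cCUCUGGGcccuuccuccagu
rno-miR-3543 (chr6:134330451-134330473, minus strand), paired with a circRNA that the study listed as lowered by surgery: cAGGAGUCgagugaugguucaaa
rno-miR-205 (chr13:107564588-107564610, minus strand), paired with 3 of the 9 circRNAs listed as lowered by EA: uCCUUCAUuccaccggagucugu
rno-miR-125a-5p (chr1:67350689-67350712, plus strand), paired with 1 circRNA listed as lowered by EA: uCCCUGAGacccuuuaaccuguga
rno-miR-351-5p (chrX:137725157-137725181, minus strand), paired with the same circRNA: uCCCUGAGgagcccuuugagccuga
Of these 5 miRNAs, rno-miR-125a-5p and rno-miR-351-5p share the seed CCCUGAG, and the others have seeds of their own.

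The total count was 183559, 247720 and 134903 in HT replicates 1 to 3 and 214475, 360524 and 216431 in HT+EA replicates 1 to 3. HT+EA held the deepest library and HT the shallowest, and the groups overlapped. Means were 188727 ± 56590 (SD, n = 3) in HT and 263810 ± 83760 (SD, n = 3) in HT+EA, a difference that was not larger than the spread between libraries (two-sided exact permutation test over 20 partitions, p = 0.4; adjusted over 4 measures 0.533). With 3 libraries against 3 this test cannot give a p under 0.1. HT libraries listed 9837, 11901 and 8679 circRNAs and HT+EA libraries 10613, 13945 and 11325. The number listed thus followed the depth of the library, and the group means of 10139 ± 1632 and 11961 ± 1755 (SD, n = 3 each) did not differ beyond their spread (exact permutation test, p = 0.3; adjusted 0.533). At the depth of the smallest library the expected numbers were 8905, 9542 and 8679 in HT and 9210, 9831 and 9531 in HT+EA (exact permutation test, p = 0.3), so the gap between the means fell from 1822 to 482 circRNAs. These numbers still ranked in the order of the library totals, and the part of depth that remained in the gap was not tested. The share of all counts held by the top 10 circRNAs was 5.98% to 6.3%, with no difference between the groups beyond their spread (exact permutation test, p = 0.9; adjusted 0.9).

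**Figure D1:**
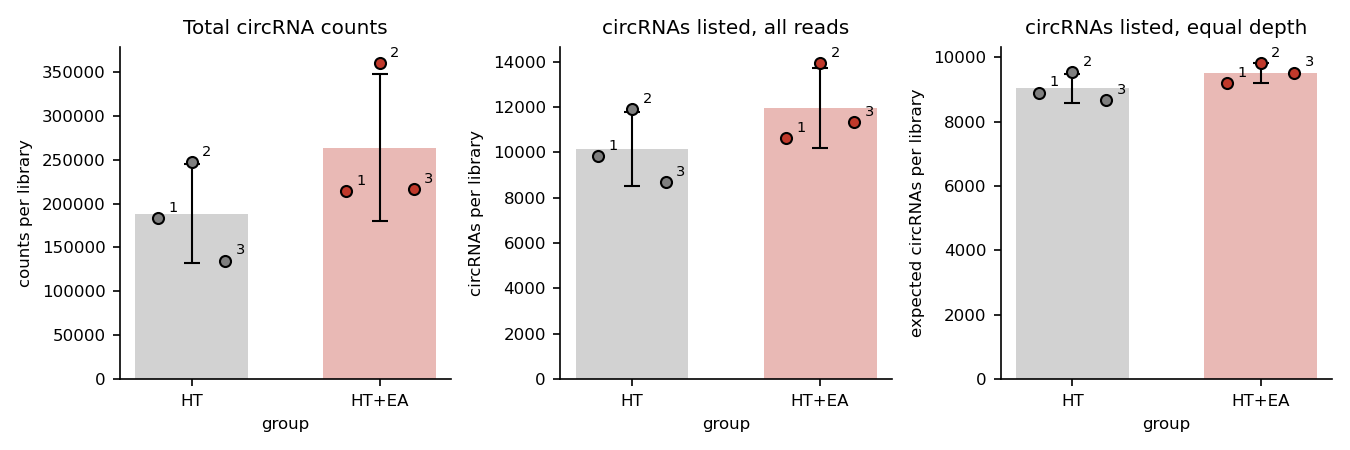
Total circRNA counts, circRNAs listed and expected number listed at equal depth (y axes) in the HT and HT+EA groups (x axis). Points are libraries numbered by replicate, bars are means and whiskers SD (n = 3); HT+EA replicate 2 is the deepest library at 360524 counts and HT replicate 3 the shallowest at 134903, and the gap between the group means narrows from 1822 to 482 circRNAs at equal depth.

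Whether electroacupuncture set the circRNA profile apart as a whole was asked of the 3841 circRNAs with enough counts to be tested. Of the summed squared distances among the 6 libraries, 20.6% lay between HT and HT+EA, with a pseudo-F of 1.04 (exact permutation test over 20 partitions, p = 0.4), so a separation was not detectable. In such bulk tissue, fewer cells of a type and less circRNA per cell cannot be told apart. The first principal component, with 30.7% of the variance, set HT replicate 3 at 46.9 against -12.2 to -5.62 for the other 5 libraries. This library, the smallest, listed 4.06% of the tested circRNAs at 0, against 1.3% to 2.06% in the others. The second component, with 20.8% of the variance, had HT replicate 1 at 35.1 and the 3 HT+EA libraries at -15.7, -7.46 and -16.2, below all HT libraries, of which the lowest lay at 2.07. Pairs within HT+EA had a Pearson r of 0.793 to 0.813 between log2 CPM (counts scaled to equal library totals) across circRNAs, which are not independent replicates. Within HT, r was 0.796 between replicates 1 and 2, and 0.72 and 0.727 for the pairs with replicate 3. Between the groups r was 0.731 to 0.834, and the pair most alike of all was HT replicate 2 and HT+EA replicate 2, from different groups. Each is the deepest library of its group, and the part of depth in this likeness was not tested. Without HT replicate 3 the pseudo-F was 1.12 (exact permutation test, p = 0.2).

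**Figure D2:**
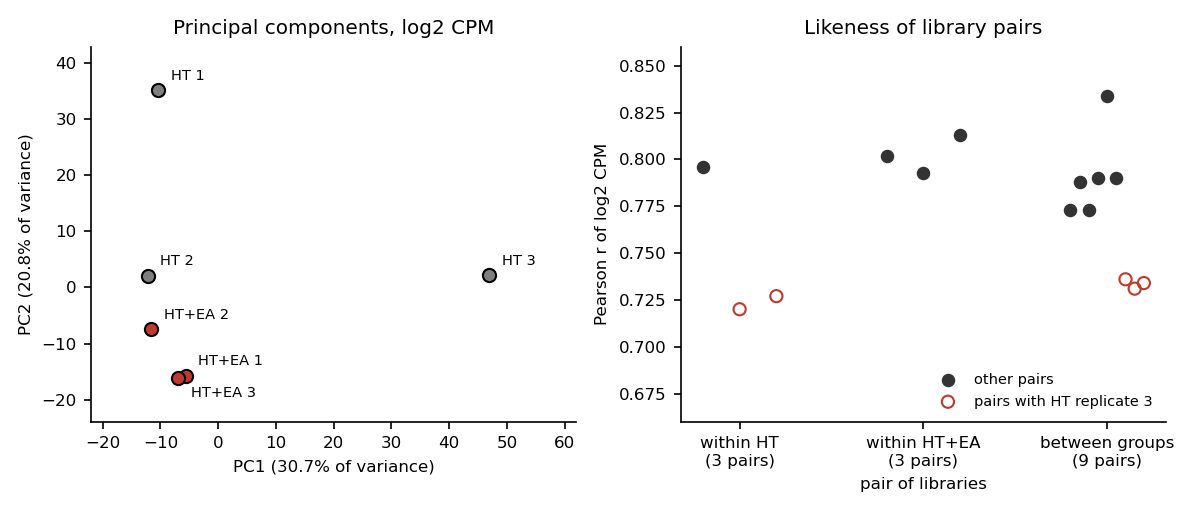
Left, the 6 libraries on the first 2 principal components of log2 CPM, with HT replicate 3 at 46.9 on the first component and the HT+EA libraries between -16.2 and -7.46 on the second. Right, Pearson r of log2 CPM (y axis, not starting at 0) for pairs of libraries within HT, within HT+EA and between the groups (x axis); open circles are pairs with HT replicate 3, which span 0.72 to 0.736.

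In the reported fit no circRNA differed between HT+EA and HT after adjustment for the number tested. With edgeR's quasi-likelihood test, 168 of 3841 circRNAs (4.37%) had an unadjusted p below 0.05, of which 81 (2.11%) were higher and 87 (2.27%) lower in HT+EA, whereas 192.1 would pass if no circRNA differed; limma-voom, with 235, was above that number and DESeq2, with 49, below it. None (0%) passed a Benjamini-Hochberg adjusted p below 0.05 with edgeR, where the smallest adjusted p was 0.94, nor with DESeq2 or limma-voom on the same circRNAs, which called 1.28% and 6.12% unadjusted. Of the edgeR calls, DESeq2 shared 49 and limma-voom 118 in the same direction. On other sets of circRNAs or libraries edgeR called 604 of 19113 (3.16%) with no filter on low counts, of which 37 passed the adjustment. Of these 37, 33 were at 0 in some library, 23 were at 0 in a whole group and 14 were among the 3841. With a mean count of at least 2 edgeR called 404 of 10376 (3.89%), and with all 12 libraries in the fit 231 of 4838 (4.77%). DESeq2 called 143 (2.96%) on the 12 libraries, of which 4 passed the adjustment. Without HT replicate 3, edgeR called 157 of 4350 circRNAs (3.61%), 86 higher and 71 lower, which held 79 of the 168, and 1 passed the adjustment. It was passed by 2 without HT+EA replicate 2 and by 3 without HT+EA replicate 3. Without HT replicate 2 edgeR called 265 of 4353 (6.09%), 168 higher and 97 lower. The fits that left out 1 HT or HT+EA library held between 70 and 97 of the 168. Only 21 of the 168, of which 6 were higher and 15 lower, were called in all 6 of these fits.

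Fold changes are relative to the bulk of the tested circRNAs, since the TMM scaling sets their centre near 0 (median log2 fold change -0.00031), and with no filter the median was 0.21. A change past 2-fold in either direction was fitted for 169 circRNAs, 88 higher and 81 lower, and 90 of the 169 were in the least abundant of 4 classes of equal size, at a mean of 35.3 to 73.9 CPM. In that class 34 circRNAs (3.54%) were called, against 47 (4.9%) in the second, 45 (4.69%) in the third and 42 (4.38%) in the most abundant class, all beside 4.37% of all circRNAs tested. Calls thus occurred in all 4 classes, up to a mean of 3720 CPM. Among the 157 called circRNAs with counts in all 6 libraries, the absolute log2 fold change had a median of 0.88 and ran from 0.34 to 2.47.

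How far an effect could have gone unseen depended on abundance. The 95% interval of the log2 fold change lay wholly within 2-fold in 800 of 960 circRNAs (83.3%) of the most abundant class, at 232.0 CPM or more, but in 25 of 961 (2.6%) of the least abundant one. Over all abundances this held for 1421 of 3841 (37%), and for the rest a 2-fold change was not excluded at this depth. The standard errors behind these intervals were derived from the fold change and its F statistic. They can be too small where the log2 fold change is near 0. In the least abundant class novel_circ_0001011 had a standard error of 0.21 at a log2 fold change of -0.00032, against a class median of 0.53. The numbers of intervals within 2-fold are thus approximate and may be too high. Each of the 100 most abundant circRNAs had its interval within 2-fold, their log2 fold changes ran from -0.39 to 0.39, and 1 of them was called, higher in HT+EA. None of the 10 most abundant was called, where the threshold called 4.37% of all tested. Their log2 fold changes ran from -0.3 to 0.33.

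**Figure D3:**
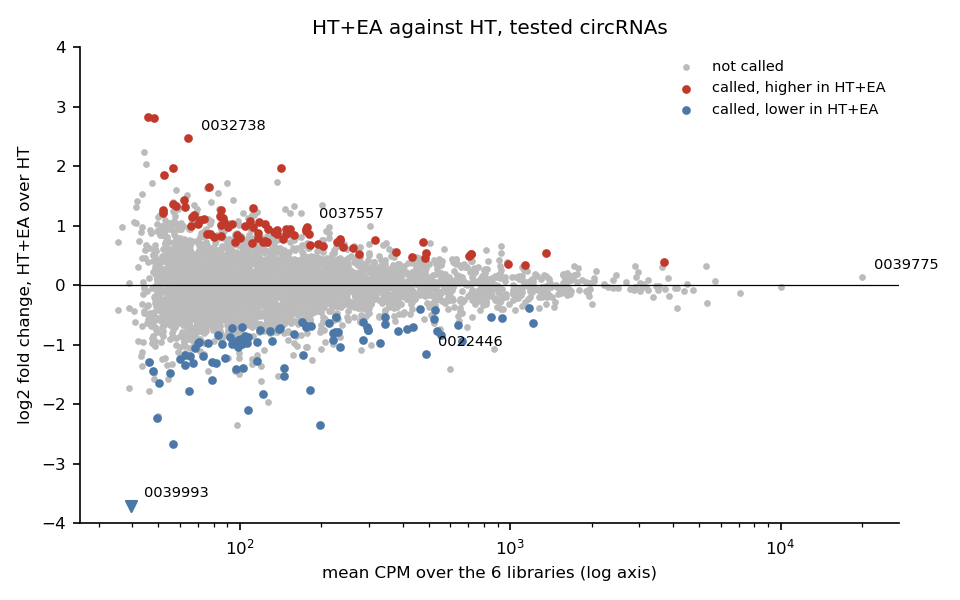
Log2 fold change of HT+EA over HT (y axis) against mean CPM over the 6 libraries (x axis, log scale) for 3841 tested circRNAs; red and blue points are the 81 higher and 87 lower calls at an unadjusted edgeR p below 0.05, and the 5 named circRNAs carry their numbers. The cloud narrows from left to right around 0; the blue triangle stands for novel_circ_0039993, listed at 0 in all HT+EA libraries and drawn at the edge of the axis.

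In 455 of 3841 circRNAs (11.8%) the CPM of the groups did not overlap, with all 3 HT+EA libraries above all HT libraries in 225 (5.86%) and below them in 230 (5.99%). Of these, 74 and 76 were also among the called circRNAs. The near balance of directions was not kept with a mean count of at least 2, where 673 of 10376 circRNAs lay above and 397 below.

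Among circRNAs higher in HT+EA, novel_circ_0032738 ranked first by p. It was one that the study listed as raised by EA and paired with rno-miR-326-3p, shown above. The counts were 4, 3 and 2 counts in HT replicates 1 to 3 and 23, 28 and 19 in HT+EA replicates 1 to 3. Each HT+EA library was above every HT library. Its level was 19.3 ± 5.78 CPM in HT and 110 ± 17.0 CPM in HT+EA (SD, n = 3 each), 5.55-fold higher. The log2 fold change was 2.47 (standard error 0.44, 95% interval 1.47 to 3.47), called unadjusted but with an edgeR adjusted p of 0.94. HT counts of 2 to 4 sit at the lowest values the table lists, so the size of this fold rests on very few reads. This circRNA passed the filter on low counts through its HT+EA libraries alone, the group where it was high, so its rank and call only describe it. Of the 17 fits run, 16 called it, and limma-voom did not. In HT+SEA, with needles and no current, it had 5, 22 and 17 counts (92.3 ± 62.9 CPM), so that 2 of 3 sham libraries, at 147 and 106 CPM, were as high as HT+EA, and in NC it had 5, 11 and 0 (28.3 ± 28.9 CPM).

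The second circRNA named as higher in HT+EA was novel_circ_0037557, which the study listed as lowered by surgery and paired with rno-miR-3543. Its counts were 19, 29 and 10 in HT and 43, 68 and 43 in HT+EA. The HT+EA libraries lay close together, at 240.0, 231 and 238 CPM, all above the 122, 142 and 86.6 CPM of HT. The level was 1.98-fold higher in HT+EA, with a log2 fold change of 0.98 (standard error 0.27, 95% interval 0.36 to 1.61), called unadjusted but with an edgeR adjusted p of 0.94. NC libraries had 38, 43 and 66 counts (250 ± 59.0 CPM) and HT+SEA libraries 49, 28 and 35 (213 ± 22.9 CPM), so HT was the lowest of the 4 groups, with no HT library at or above any library of another group.

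Among circRNAs lower in HT+EA, novel_circ_0039993 ranked first by p. It passed the filter on low counts through its HT libraries alone, the group where it was high, so its rank and call only describe it. It had 11, 20 and 8 counts in HT and was listed at 0 in all 3 HT+EA libraries. Its level in HT was 79.5 ± 16.3 CPM (SD, n = 3), and no fold is given against a group listed at 0. It was called unadjusted, with an adjusted p of 0.94 with edgeR and of 0.074 with DESeq2 on the same libraries and circRNAs. A 0 in this table means under 2 reads or no call in that library. It was also listed at 0 in NC replicates 1 and 2 and HT+SEA replicates 2 and 3, with 8 counts in NC replicate 3 and 17 in HT+SEA replicate 1. Across the 12 libraries it was thus listed in all of HT and in 1 library each of NC and HT+SEA.

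The second circRNA named as lower in HT+EA, novel_circ_0022446, had the most counts of the 4. It had 105, 138 and 77 counts in HT and 64, 102 and 35 in HT+EA. At 677, 678 and 667 CPM the HT libraries were almost alike, while the HT+EA libraries, at 357, 346 and 194 CPM, were all lower. The level was 2.24-fold lower in HT+EA, with a log2 fold change of -1.16 (standard error 0.24, 95% interval -1.72 to -0.61), called unadjusted but with an edgeR adjusted p of 0.94. The counts were 111, 98 and 105 in HT+SEA (612 ± 74.3 CPM), each library above all of HT+EA, and 90, 129 and 67 in NC (496 ± 178 CPM), where 1 library, at 322 CPM, was within the range of HT+EA. All 4 of these circRNAs were among the 21 called in every fit that left out 1 library. They were chosen for their small p in these libraries, which those fits reuse, so this only describes them.

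The most abundant circRNA was novel_circ_0039775, with 21000, 19000 and 17200 CPM in HT and 21700, 20900 and 20200 in HT+EA. The groups overlapped, with HT replicate 3 the lowest. The log2 fold change was 0.14 (standard error 0.07, 95% interval -0.03 to 0.30), not called, with an edgeR adjusted p of 0.94. It was called unadjusted without HT replicate 1, at a log2 fold change of 0.22, and with no filter, at 0.19, whereas without HT replicate 3 it was not called and the value was 0.058.

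**Figure D4:**
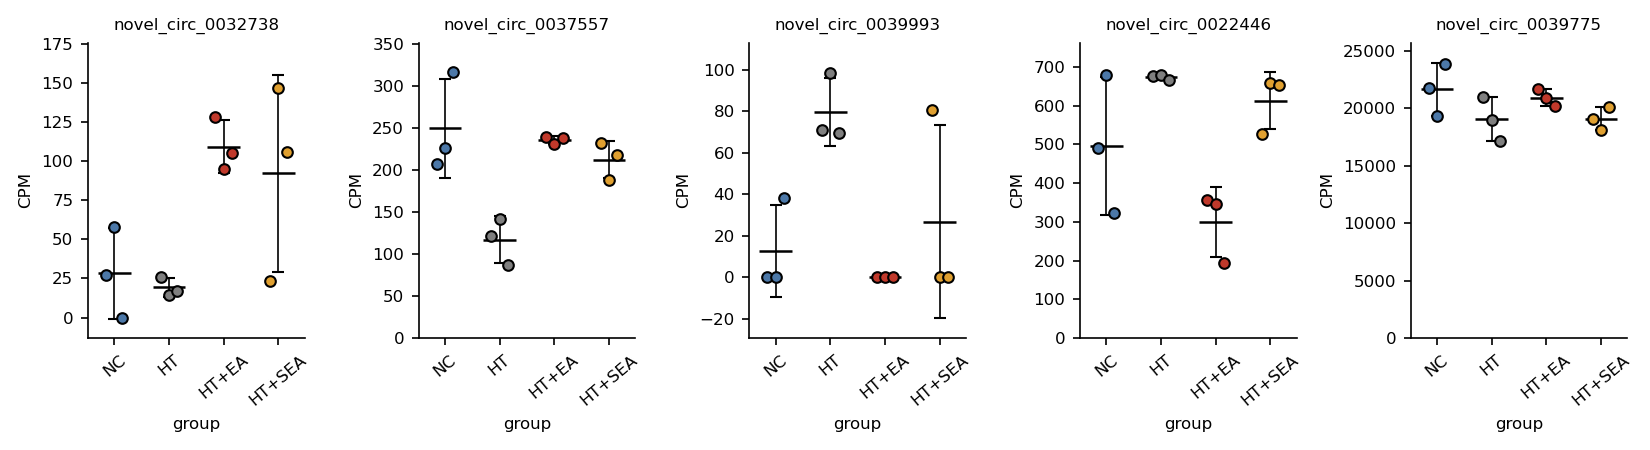
CPM (y axes) of the 5 named circRNAs in each library of all 4 groups (x axes); points are libraries, lines means and whiskers SD (n = 3), which pass below 0 where a library is listed at 0. HT+EA lies above HT for novel_circ_0032738 and novel_circ_0037557, below it for novel_circ_0039993 and novel_circ_0022446, and overlaps it for novel_circ_0039775.

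The study drew lists of node circRNAs from these same libraries, so their direction here is not independent evidence. Of 13 listed as raised by EA, 9 were tested and 7 were called higher, beside 2.11% of all circRNAs tested, with a median log2 fold change of 0.75 and a range of 0.33 to 2.82. Of 9 listed as lowered by EA, 7 were tested and all 7 were called lower, beside 2.27% of all tested, with a median of -1.27 and a range of -2.1 to -0.73, against a median of -0.00031 over all tested. Without HT+EA replicate 3 only 3 of the 9 were called higher, 4 were called without HT replicate 1, without HT+EA replicate 1 or with limma-voom, and 5 without HT replicate 3 or HT+EA replicate 2. Those called lower were 5 without HT replicate 2 or 3 and 6 or 7 without another library. Some called members passed the filter on low counts only through the group where they were high, so their calls only describe them. Among those raised, novel_circ_0019318 had 5, 0 and 0 counts in HT and 20, 17 and 13 in HT+EA. Among those lowered, novel_circ_0000642 had 16, 17 and 14 counts in HT and 0, 13 and 7 in HT+EA. None of the 16 passed the adjustment in the reported edgeR fit, though novel_circ_0032738 did with no filter, and the other 6 were too low to test, with means of 2.17 to 5.17 counts per library.

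More circRNAs were listed only in HT+EA than only in HT. Of 19113 circRNAs listed in at least 1 of the 6 libraries, 5175 (27.1%) were listed in all 6. In all 3 HT+EA and no HT library, 218 (1.14%) were listed, and in all 3 HT and no HT+EA library 49 (0.256%). The libraries of HT+EA held more reads, as given above, and the part of depth in these numbers was not tested. The 218 were low, with a median of 4 counts per HT+EA library and at most 9.33, and none had enough counts to be tested; 163 of them were listed in at least 1 HT+SEA library and 166 in at least 1 NC library. The 49 had a median of 3.33 counts per HT library and at most 13, and 1 of them, novel_circ_0039993, was tested.

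**Figure D5:**
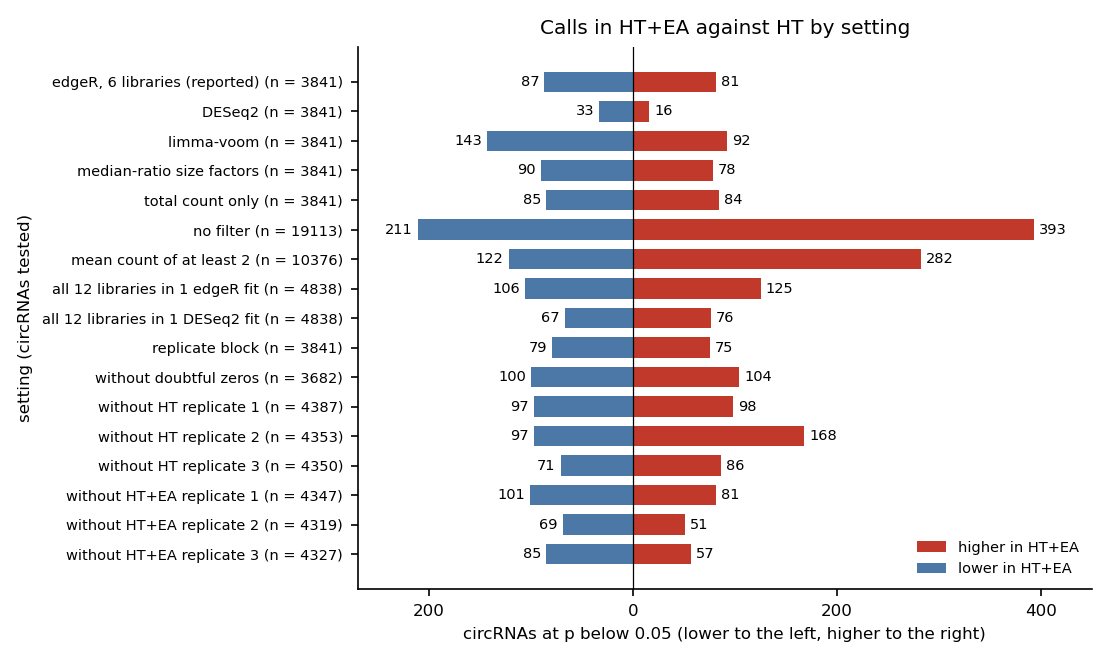
Number of circRNAs at an unadjusted p below 0.05 in HT+EA against HT (x axis), higher to the right in red and lower to the left in blue, under the reported fit and 16 other settings (y axis, with the number tested). The reported 81 and 87 turn to 16 and 33 with DESeq2 and to 393 and 211 with no filter; doubtful zeros are those where 20 counts were expected.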

How the data were processed

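Strand-specific libraries were made from total RNA and sequenced on Illumina HiSeq instruments by the authors. The methods name HISAT2, featureCounts and mRatBN7.2, while the submitters' processing notes list a human build and the design text says mouse; the labels say rat. No source used here names the circRNA caller. The authors deposited raw read counts of 21914 circRNAs, with no coordinates or host genes; each count was 0 or at least 2, so no limit was set from a 0. Reads carried no molecular identifiers. A further 12 columns were not used.

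Groups came from sample titles. Counts were tested with edgeR 4.0.16 in R 4.3.3 (TMM, filterByExpr with a minimum count of 10 and total of 15, glmQLFit, glmQLFTest, two-sided); a circRNA with an unadjusted p below 0.05 is called. The 3841 circRNAs kept held 81.8% to 85.1% of each library's counts. Standard errors came from the log2 fold changes and F statistics, which can make them too small at log2 fold changes near 0. CPM used TMM over tested circRNAs, within the 6 libraries for HT and HT+EA and within all 12 for NC and HT+SEA. Profiles used log2 CPM with a prior count of 2. Numbers listed at equal depth are hypergeometric expectations of circRNAs with 2 or more reads, except that the smallest library keeps its own number. The edgeR, DESeq2 and limma-voom fits were tested on simulated data. Library pairs within a group differed beyond sampling noise (chi-square over degrees of freedom 2.85 to 3.29). DESeq2 1.42.0, limma 3.58.1, other filters, scalings and left-out libraries were alternatives. Named circRNAs were the 2 higher and 2 lower ones with the smallest p, the most abundant one, and any that passed the adjustment in a fit of these 6 libraries where at most 5 did (none did). The comparison, lists and rules were chosen with earlier results of these data known.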

Additional observations from a re-analysis of the deposited data

How the results depend on the processing

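The unadjusted count of 168 became 49 with DESeq2, 604 with no filter (19113 circRNAs tested, median log2 fold change 0.21) and 404 with a mean count of at least 2 (10376 tested), where calls were 393 higher and 211 lower, then 282 higher and 122 lower; more circRNAs were tested in the last pair, and the cause of the DESeq2 count was not tested. Leaving out 1 library gave 120 of 4319 (2.78%, without HT+EA replicate 2) to 265 of 4353 (6.09%, without HT replicate 2). Most calls were higher under 8 of 16 alternatives and lower under the other 8. Adjusted calls were 37 with no filter, of which 33 were at 0 in some library, and 4 with DESeq2 on all 12 libraries. With 1 library left out there were 0 to 3 (1 without HT replicate 3, 2 without HT+EA replicate 2, 3 without HT+EA replicate 3). All other alternatives gave 0, and the cause was not tested. With no filter novel_circ_0022446 (0.0146), novel_circ_0032738 (0.0331) and novel_circ_0039993 (6.39e-05) passed the adjusted threshold with edgeR. The 14 called node circRNAs became 22 with no filter and 9 to 12 with 1 library left out, an alternative chosen after seeing the data. The numbers tested also changed. Of those listed as raised and as lowered, the reported fit tested 9 and 7, and no filter tested 13 and 9. With 1 library left out, 9 of those raised and 7 or 8 of those lowered were tested. Groups did not overlap in 1070 circRNAs with a mean count of at least 2 (673 above, 397 below). Removing circRNAs listed at 0 where 20 counts were expected (159 of 3841) gave 204 calls, with a smallest adjusted p of 0.373. No alternative moved the differences in total count, number listed or profile across a p of 0.05, which groups of 3 cannot reach. Of 80 alternative values for the 5 named circRNAs, 77 kept direction and side of the unadjusted threshold and none reversed. All but the most abundant of the 5 were chosen for a small p in these libraries, so this only describes them. No source used here states what same-numbered HT and HT+EA libraries share. Their deviations correlated at 0.00375, 0.12 and 0.0394, and so few values cannot show whether they share more than a number. The replicate block gave 154 calls, 75 higher and 79 lower, with 0 adjusted. HT replicates 1 and 3 and HT+EA replicate 1 did not correlate best with their own number.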

Other observations

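Some circRNAs alternated between a high count and 0 among libraries of the same group. Of those named here, novel_circ_0030443 did so within HT and the others within HT+EA. The 6 that passed an adjusted p below 0.05 with edgeR when 1 library was left out were of this kind, and they were named after their values were seen; 2 of them were tested in the reported fit. In HT replicates 1 to 3 and then HT+EA replicates 1 to 3, novel_circ_0009707 had 0, 0, 0, 359, 558 and 0 counts, while novel_circ_0030443 had 138, 171, 0, 0, 0 and 0. A pair with 0 in all 3 HT libraries were novel_circ_0001491, with 90, 92 and 0 counts in HT+EA, and novel_circ_0011248, with 76, 0 and 84. The other two were higher in HT: novel_circ_0018849 had 111, 176, 124, 0, 278 and 0 counts, and novel_circ_0003652 had 27, 53, 19, 0, 0 and 30. Of these 6, 4 were also listed at 0 in some NC or HT+SEA library. The adjusted calls of DESeq2 on all 12 libraries included novel_circ_0009707, novel_circ_0011248 and novel_circ_0030443. In NC replicates 1 to 3 and HT+SEA replicates 1 to 3, novel_circ_0009707 had 0, 334, 440, 382, 0 and 0 counts and novel_circ_0030443 had 0, 0, 222, 181, 0 and 204, so both also switched within groups that share a treatment.

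The filter on low counts asks for counts in about as many libraries as a group holds. Of 15272 circRNAs it set aside, 12 had 50 or more counts in some library, and 10 of these 12 were listed in only 1 or 2 of the 6 libraries.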
